A study of Mus musculus with 10 samples.

Results

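Lungs of exercised hypoxic mice (HE, 3 libraries) were compared with lungs of hypoxic mice (Hy, 4 libraries) by messenger RNA sequencing, over the 17956 genes that had a value in these 7 of the 10 libraries of the series. The 3 C libraries were left out of the fit. The genes included 491 that were blank in C, and 17465 that C shared. All samples were labelled as lung of wild-type genotype with a single treatment label, so the groups rest on the title prefixes, read through the series title as hypoxia-induced pulmonary hypertension without (Hy) and with (HE) aerobic exercise. The labels used here give no strain, age, sex, oxygen level or training schedule, and do not state whether each library is a separate animal. Every p-value therefore measures only the spread between libraries, part of which may be technical.

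Chronic hypoxia narrows and remodels the small arteries of the lung, and the right heart then works against a higher pressure. Endothelial cells, smooth muscle, fibroblasts and recruited leukocytes all take part in the remodelling. Neutrophils pass through the lung capillaries in large numbers and many are held there at any time, so lung tissue carries a changing load of their transcripts. Exercise is known to move leukocytes and platelets in and out of this pool, and to act on the clock and on fuel use in many organs.

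The libraries held between 16968236 (Hy3) and 17804039 (HE3) estimated counts. Levels are TMM-scaled CPM, which are counts scaled to library size with a factor per library. The lung markers were present throughout: Sftpc, the surfactant protein C gene of alveolar type 2 cells, ran from 6676 to 16345 CPM, Ager of alveolar type 1 cells from 3720 to 5794 CPM and Pecam1 of endothelium from 926 to 1248 CPM. Marco, a receptor of alveolar macrophages, was low, from 0.349 to 8.10 CPM. Cardiac muscle genes, which belong to heart and to the muscle sleeves of pulmonary veins, stood apart in Hy4 and HE3, with list scores of 2.21 and 1.66 against -2.01 in Hy3. A list score is the mean over the list's tested genes of log2 CPM minus the gene's mean over the 7 libraries. In bulk tissue, fewer cells of a type and less RNA per cell cannot be told apart.

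No gene passed the test. The edgeR quasi-likelihood test on 14664 genes that passed the filter on low counts called 0 genes at an adjusted p below 0.05, 0.0% of those tested, and its lowest adjusted p was 0.9999. At an unadjusted p below 0.05 there were 536 genes (3.66%), of which 167 were higher (1.14%) and 369 lower (2.52%) in HE. DESeq2 called 35 genes, 8 higher and 27 lower, and limma-voom called 0. The 2 groups did not overlap in 648 genes (4.42%), with HE above Hy in 293 (2.0%) and below it in 355 (2.42%). Log2 fold changes below are HE minus Hy from edgeR, and all are of genes that edgeR did not call. Their median SE was 0.216, and the common biological coefficient of variation was 28.1%.

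Fold changes of 2 or more were found in 95 genes in the higher direction (0.648%) and in 261 in the lower direction (1.78%). These counts depended on the libraries, with 280 higher and 249 lower without Hy2 and Hy4, and 220 and 233 with the replicate number as a block. Leaving out 1 library gave 188, 167 and 160 higher genes without Hy4, HE1 and HE2, and 410 lower genes without HE3. Few libraries set many of these. In 133 of the 261 lower genes (51.0%), Hy2 and Hy4 were the 2 highest Hy libraries, against 14.8% of all genes tested. In 48 of the 95 higher genes (50.5%), HE3 was the highest HE library, against 34.5% of all genes tested. The groups did not overlap in 80 of the 261 lower genes (30.65%) and 26 of the 95 higher ones (27.37%), against 4.42% of all genes tested. Genes chosen for a large difference in the same values are more often apart, so these shares are no separate result.

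Among 53 lists of pathways and cell types with at least 5 tested genes, 32 had a median log2 fold change below 0 and 21 above it, against a median of -0.02 over all genes tested. Genes of blood-borne cells filled the low end. The lowest medians belonged to neutrophils (-2.44), red cells (-1.61), monocytes (-0.75), dendritic cells (-0.66), platelets and megakaryocytes (-0.64) and NK cells (-0.62). At the high end stood adipocyte (1.30), mesothelium (0.37), circadian clock (0.34), glucocorticoid-responsive (0.34) and fibroblast genes (0.20). The fibroblast median was -0.08 without HE3 and 0.06 without Hy3. T cell and B cell genes lay near the middle, with medians of -0.06 and -0.10.

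**Figure D1:**
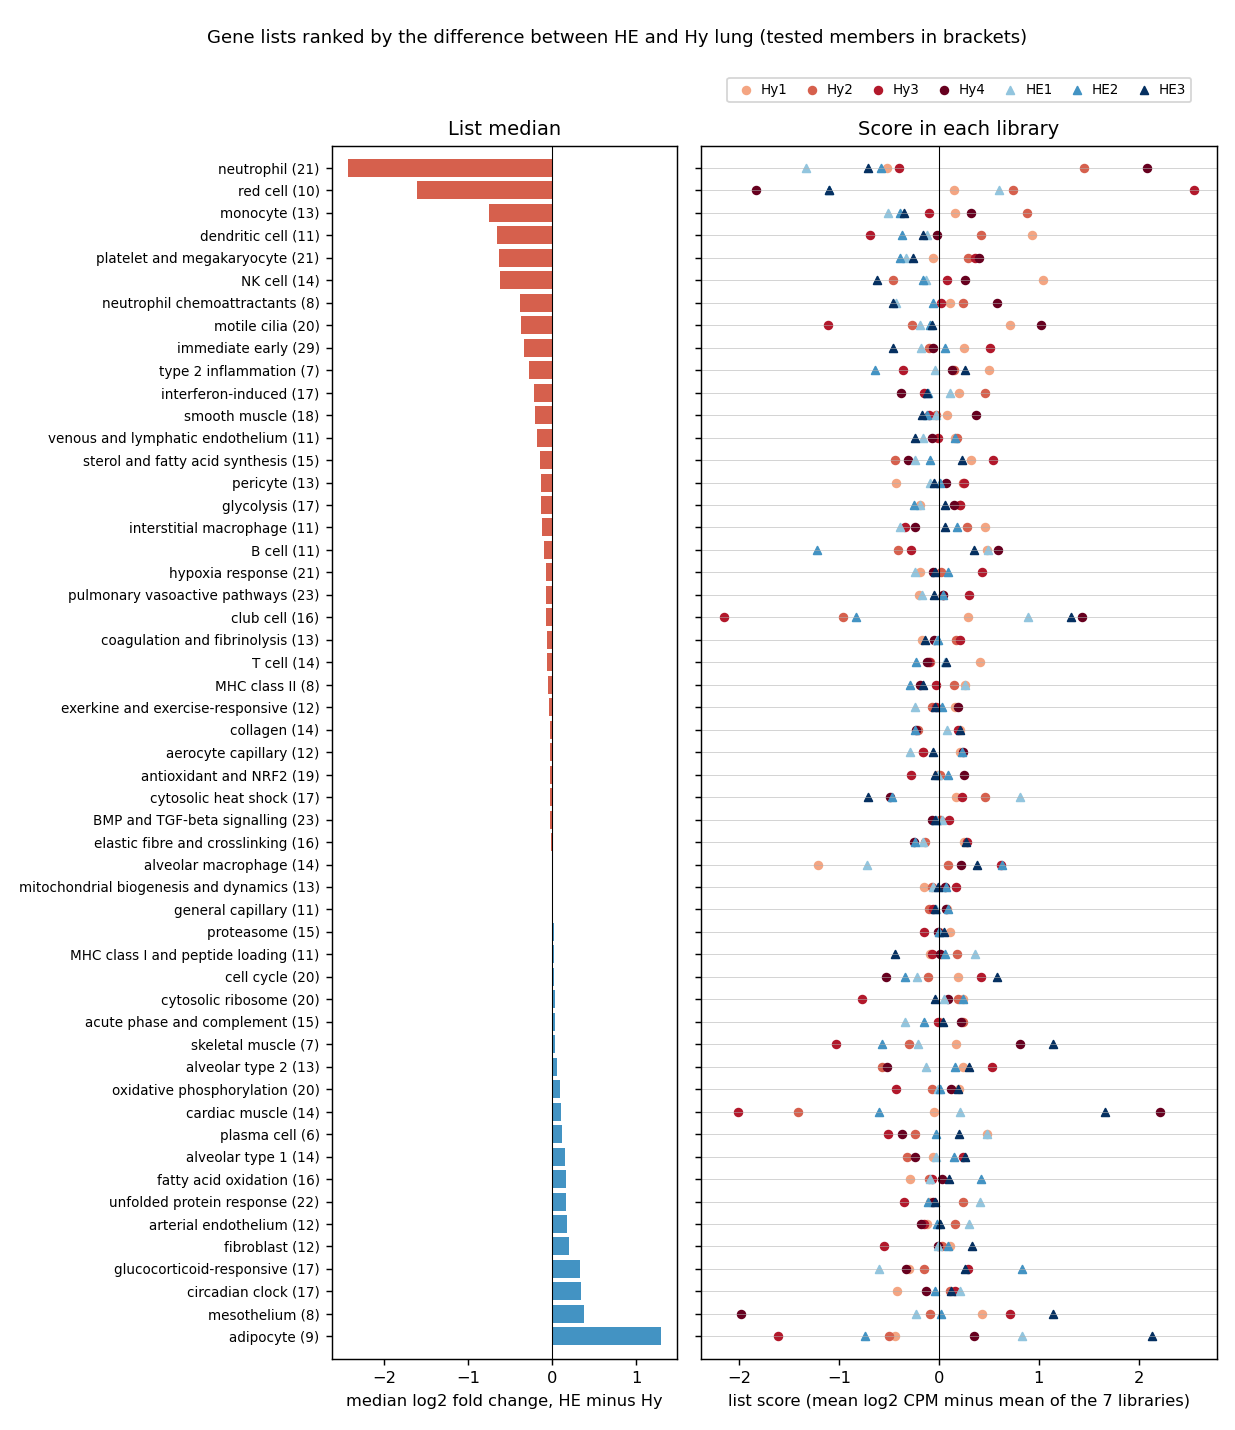
Left, the median log2 fold change (HE minus Hy) of each of 53 gene lists, with the number of tested genes in brackets; right, the score of each list in every library on a log2 scale, circles for Hy and triangles for HE. Neutrophil genes have the lowest median (-2.44) and adipocyte genes the highest (1.30), and the Hy circles lie farther apart (larger SD) than the HE triangles in 36 lists.

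Of the 27 neutrophil genes, 21 were tested and 20 had a negative log2 fold change, where 54.2% of all genes tested did. At an unadjusted p below 0.05 were 16 lower genes (2.52% of all genes tested) and 1 higher gene (1.14%), and 8 did not overlap between the groups (2.42% in the lower direction). Ngp, a neutrophil granule protein, had 3.61, 8.56, 5.58 and 20.6 CPM in Hy1 to Hy4 and 0.278, 1.17 and 0.270 CPM in HE1 to HE3. Every HE library was below every Hy library, and the log2 fold change was -4.06 (SE 0.80, 95% interval -5.89 to -2.23). S100a8, a calprotectin subunit released at sites of inflammation, had 39.4, 280, 20.1 and 417 CPM in Hy against 15.7, 16.4 and 17.3 CPM in HE. Hy2 and Hy4 were far above the rest, whereas Hy3 lay only just above HE, and the log2 fold change was -3.52 (SE 1.03). The stefin gene Stfa2l1, one of a family of near-identical copies, was also highest in Hy2 and Hy4, with 2.21, 28.2, 2.33 and 19.6 CPM in Hy and 0.945, 1.41 and 1.35 CPM in HE. Retnlg, a resistin-like gene of neutrophils, stood at 164 and 226 CPM in Hy2 and Hy4 and between 7.78 and 12.2 CPM in the other 5 libraries.

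By role, the calprotectin subunits had a median log2 fold change of -3.37 (2 genes), the surface receptors -1.74 (6 genes) and the granule proteins -1.70 (8 genes). Among the receptors, Cxcr2, the receptor for neutrophil-attracting chemokines, had 17.3, 73.3, 10.6 and 103 CPM in Hy and 6.61, 12.9 and 7.18 CPM in HE, so HE2 lay above Hy3. Mmp9, a gelatinase stored in granules, ranged from 15.0 to 115 CPM in Hy and from 8.28 to 10.5 CPM in HE, without overlap. Ltf, the lactoferrin gene, which airway glands also use, was the 1 gene with a positive value. It had 22.3, 0.939 and 121 CPM in HE and 2.45 to 10.5 CPM in Hy, so its value rested on HE1 and HE3. Of the 6 genes that were valued but too low to test, Ly6g reached 4.17 and 7.76 CPM in Hy2 and Hy4 and at most 0.429 CPM elsewhere, and the progenitor enzymes Mpo and Elane stayed at or below 0.470 CPM in every library.

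The neutrophil score was 1.45 in Hy2 and 2.08 in Hy4, -0.52 in Hy1 and -0.40 in Hy3, and between -1.33 and -0.58 in HE. Over all alternatives run the list median stayed below 0, from -2.66 (without Hy3) to -0.67 (without Hy2 and Hy4 together). In the list headed neutrophil chemoattractants, all 8 tested genes were negative (54.2% of all genes tested) with a median of -0.38. The list mixes chemokines with the cytokine genes Il1a, Il1b, Tnf and Csf2, and its member Ppbp is also in the platelet list. Il1b, the interleukin 1 beta gene, had 23.6, 54.9, 12.9 and 58.3 CPM in Hy against 5.89, 14.6 and 5.93 CPM in HE. The chemokine genes Cxcl1 and Cxcl2 had log2 fold changes of -0.09 (SE 0.46) and -0.21 (SE 0.56). Both were low, with means of 2.10 and 0.634 CPM in Hy and 1.97 and 0.552 CPM in HE. At these levels and SEs, moderate differences in either direction cannot be seen.

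**Figure D2:**
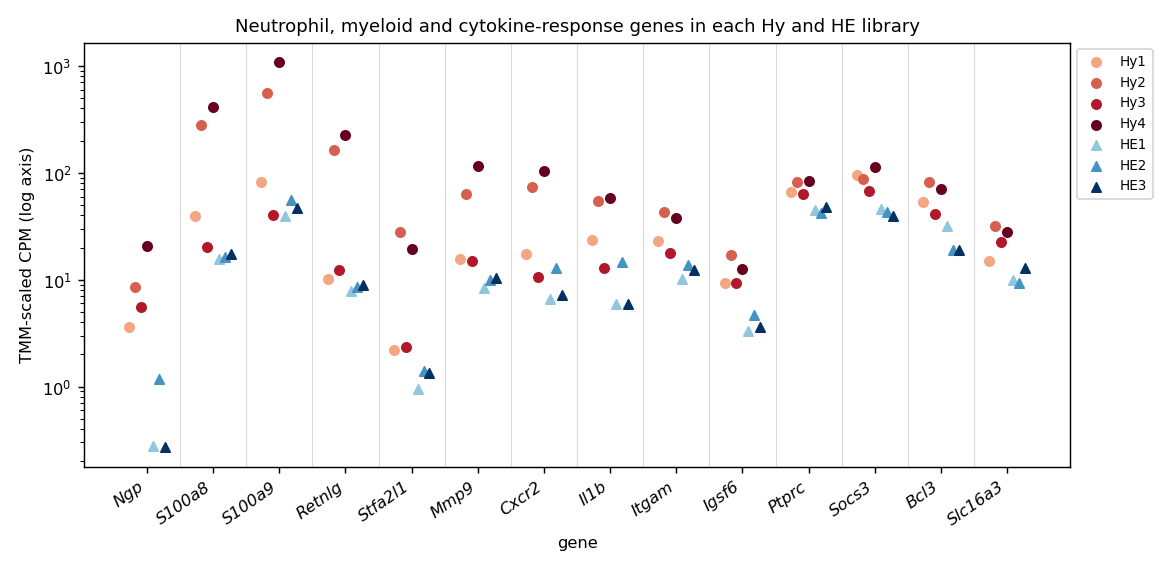
TMM-scaled CPM on a log axis for 14 neutrophil, myeloid and cytokine-response genes, 1 point per library, circles for Hy and triangles for HE. In the neutrophil genes Hy2 and Hy4 stand above Hy1 and Hy3 (S100a8 280 and 417 against 39.4 and 20.1 CPM), whereas in Ptprc and Socs3 all Hy libraries lie close together and above HE.

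All 13 genes of the monocyte list were negative, with a median of -0.29 without Hy2 and Hy4. Ace (means of 3445 CPM in Hy and 3029 CPM in HE) is also in the vasoactive list, and Nr4a1 in the immediate early list. Not every member is thus particular to monocytes. Of the 13 genes, 5 were lower at an unadjusted p below 0.05 (2.52% of all genes tested in this direction). Itgam and Treml4, 2 of the 13, were without overlap (2.42%). Itgam, the integrin alpha M chain of myeloid cells, had 23.2, 43.3, 17.7 and 37.5 CPM in Hy and 10.1, 13.7 and 12.4 CPM in HE (log2 fold change -1.34, SE 0.32). Ptprc, the CD45 gene carried by all leukocytes, had 66.8, 82.9, 63.1 and 83.9 CPM in Hy and 45.3, 41.9 and 47.4 CPM in HE. Its groups were separated by a wide gap, with a log2 fold change of -0.72 (SE 0.15, 95% interval -1.06 to -0.39). Igsf6, an immunoglobulin superfamily gene of myeloid cells, had 9.26, 17.0, 9.25 and 12.5 CPM in Hy and 3.33, 4.63 and 3.62 CPM in HE. Hy1 and Hy3, which were low in neutrophil genes, lay above every HE library here too. Cd300ld, another myeloid surface gene, ran from 4.31 to 15.2 CPM in Hy and from 1.67 to 3.00 CPM in HE.

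Ptprc, Igsf6, Cd300ld and the next genes were chosen by smallest p among genes without overlap, so their separation follows from the choice. Stk17b, a kinase gene of lymphocytes, had 38.3, 41.0, 34.9 and 37.3 CPM in Hy and 25.7, 24.5 and 24.3 CPM in HE, among the tightest values in both groups (log2 fold change -0.61, SE 0.12). Pik3r5, a regulatory subunit of phosphoinositide 3-kinase gamma, had a log2 fold change of -0.82 (SE 0.18). Ifi204, a nucleic acid sensor of the interferon-inducible p200 family, had 7.34, 7.58, 14.2 and 16.2 CPM in Hy and 1.78, 1.70 and 3.88 CPM in HE. Family members of Ifi204 are close in sequence, so its counts may be shared with them. DESeq2 called Ngp, Igsf6, Ifi204, Cd300ld, Stk17b, Ptprc, Itgam and Stfa2l1 at adjusted p-values of 3.69e-05, 0.000639, 0.00117, 0.0035, 0.0112, 0.0199, 0.0301 and 0.0171. Of its 27 lower calls and 8 higher calls together, 33 did not overlap between the groups (4.42% of all genes tested did not). The calls and the overlap come from the same values, so this is no separate support. Il1b and Ifitm6 were the calls that overlapped.

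Socs3, Bcl3 and Arid5a were chosen by the same rule, and no list of cytokine-response genes was tested. Socs3, the feedback inhibitor of cytokine receptors that signal through STAT3, had 95.9, 87.1, 67.2 and 113 CPM in Hy and 45.6, 43.4 and 39.4 CPM in HE. The lowest Hy library was well above the highest HE library, and the log2 fold change was -1.09 (SE 0.19, 95% interval -1.51 to -0.66). Bcl3, a nuclear partner of NF-kappa-B that STAT3 also induces, had 53.4, 82.6, 41.2 and 71.2 CPM in Hy and 32.1, 19.1 and 19.2 CPM in HE. Arid5a, which stabilises cytokine transcripts in T cells and macrophages, had 55.5, 59.0, 61.8 and 58.7 CPM in Hy and 42.0, 27.8 and 28.4 CPM in HE, so that Hy was tight and HE1 lay between. Saa3, an acute-phase gene, was low and did not overlap either, with 1.28 to 6.19 CPM in Hy and 0.556 to 0.880 CPM in HE. The list of acute-phase and complement genes as a whole was not lower, with 8 positive and 7 negative genes and a median of 0.04. In that list 2 of 15 genes were lower in HE without overlap (2.42% of all genes tested). DESeq2 gave adjusted p-values of 0.000851 for Socs3, 0.00675 for Bcl3 and 0.0179 for Arid5a.

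The promoters of Ngp and Socs3 are shown because Ngp had the lowest log2 fold change of the neutrophil list and Socs3 the smallest p of the named genes with lower levels in HE. The sequences are the 250 bases before the transcript start that the RefSeq promoter table lists on GRCm38.p6, 5′ to 3′ on the strand of the gene. For Ngp this start is the end of the annotated gene, whereas the Socs3 window lies inside the annotated span of the gene. Ngp lies at chr9:110419558-110419807 on the plus strand, with matches to the C/EBP letters TTGCNNAA in capitals. Socs3 lies at chr11:117969367-117969616 on the minus strand, with the match to the STAT letters TTCNNNGAA in capitals. Both strands were searched, and no match of one motif overlapped one of another.
Ngp: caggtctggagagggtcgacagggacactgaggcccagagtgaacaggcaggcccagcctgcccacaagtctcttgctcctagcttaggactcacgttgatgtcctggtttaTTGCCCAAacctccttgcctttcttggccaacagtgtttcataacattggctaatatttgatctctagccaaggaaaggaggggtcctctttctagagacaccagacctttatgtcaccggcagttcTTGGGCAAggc
Socs3: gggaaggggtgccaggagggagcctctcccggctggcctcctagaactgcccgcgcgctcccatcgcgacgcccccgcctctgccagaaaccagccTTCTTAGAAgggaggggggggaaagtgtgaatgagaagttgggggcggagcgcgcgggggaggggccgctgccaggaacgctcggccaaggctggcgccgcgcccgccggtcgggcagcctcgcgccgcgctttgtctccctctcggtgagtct
The Ngp window held 2 C/EBP matches, as at least 1 was held by 9.56% of the 32851 promoters in the table. The Socs3 window held 1 STAT match, and 7.02% of promoters held at least 1. C/EBP factors are known to drive granule genes during neutrophil maturation, and STAT3 is the known inducer of Socs3. A match describes the letters only.

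Of the 21 platelet and megakaryocyte genes, 20 were negative (54.2% of all genes tested). An unadjusted p below 0.05 was found in 7 (2.52%), and 3 did not overlap (Ppbp, Treml1 and Gp5, against 2.42%). Ppbp, a platelet chemokine precursor, had 6.46, 7.70, 8.58 and 11.9 CPM in Hy and 3.28, 5.75 and 4.96 CPM in HE. The genes listed as receptors all lay below 0 (10 of 10, median -0.60), as did Tubb1, Treml1 and Nrgn (3 of 3, median -0.65). Pf4, platelet factor 4, was closer, with 7.54 to 13.5 CPM in Hy and 7.83 to 10.8 CPM in HE (log2 fold change -0.29, SE 0.24). Without Hy2 and Hy4 the median was -0.42, and the platelet score lay between -0.06 and 0.40 in Hy and between -0.39 and -0.26 in HE.

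Red cell genes were all negative as well (10 of 10), but 0 had an unadjusted p below 0.05 (2.52% of all genes tested in this direction). The alpha globin gene Hba-a1 had 4126, 6948, 30620 and 543 CPM in Hy and 5194, 1308 and 2201 CPM in HE. Hy3 alone was high and Hy4 was lowest of all 7 libraries. Without Hy3 the list median went from -1.61 to -0.24. Bpgm, which makes the 2,3-bisphosphoglycerate that loosens oxygen from haemoglobin, was the 1 red cell gene without overlap, at 34.7, 35.2, 85.3 and 35.1 CPM in Hy and 33.2, 25.9 and 28.0 CPM in HE. NK cell genes (14 of 14 negative, 2 at an unadjusted p below 0.05, against 2.52%) and dendritic cell genes (10 of 11) had medians of -0.31 and -0.27 without Hy1. The scores of both lists were highest in Hy1, at 1.04 and 0.93. Ccl22, a dendritic cell chemokine, had 4.02 CPM in Hy1, 1.27 to 1.53 CPM in the other Hy libraries and 0.667 to 1.19 CPM in HE.

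Immediate early genes, which respond to stress, handling and mechanical stimuli within minutes, were negative in 26 of 29 (54.2% of all genes tested), with a median of -0.33. An unadjusted p below 0.05 was found in 5, all lower in HE (2.52% of all genes tested). The AP-1 genes were negative in 7 of 7 and the EGR genes in 3 of 3. Fos, an AP-1 subunit, had 34.6, 25.2, 88.2 and 19.3 CPM in Hy and 25.6, 37.8 and 15.8 CPM in HE, so the groups overlapped throughout. Only Socs3 and Myc, a growth regulator with 8.17 to 11.5 CPM in Hy and 5.10 to 8.09 CPM in HE, did not overlap in this list. That is 2 of 29, against 2.42% of all genes tested, and Socs3 is also among the genes chosen for lack of overlap. Ptgs2, the inducible cyclooxygenase of prostaglandin synthesis, was high in 2 Hy libraries, with 30.3 and 41.5 CPM in Hy1 and Hy3, 2.60 and 3.94 CPM in Hy2 and Hy4, and 3.56 to 4.56 CPM in HE.

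In the pathways tied to pulmonary hypertension the medians lay close to 0. BMP and TGF-beta signalling had a median of -0.02 with 0 of 23 genes at an unadjusted p below 0.05 (3.66% of all genes tested). At that share a list of this size can easily hold 0, so the count says little. Bmpr2, the receptor gene most often mutated in heritable pulmonary arterial hypertension, had 282, 323, 457 and 279 CPM in Hy and 355, 376 and 300 CPM in HE. Its log2 fold change was 0.03 with a 95% interval of -0.44 to 0.51, so moderate differences in either direction lie within it. Vasoactive genes had a median of -0.08. Edn1, the vasoconstrictor endothelin 1, its receptor gene Ednrb and Nos3, the endothelial nitric oxide synthase gene, had log2 fold changes of 0.23 (95% interval -0.40 to 0.86), 0.29 (-0.44 to 1.01) and -0.45 (-1.28 to 0.38). HE2 was the highest of all 7 libraries in both Edn1 (103 CPM) and Ednrb (95.1 CPM). Ptgis, the prostacyclin synthase gene, had 89.8 to 170 CPM in Hy and 164 to 202 CPM in HE.

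Vessel wall genes were near the middle too. Of 18 smooth muscle genes, 16 were negative (54.2% of all genes tested) with a median of -0.20, and 0 had an unadjusted p below 0.05 (3.66%). Acta2, smooth muscle actin, had 310, 343, 230 and 380 CPM in Hy and 272, 174 and 269 CPM in HE (log2 fold change -0.40, SE 0.23). Within the 16 elastic fibre genes, whose median was -0.01, Eln itself stood out, and is named after its values were seen. Eln, the tropoelastin gene that is switched on when vessel walls thicken, had 441, 400, 523 and 454 CPM in Hy and 274, 180 and 294 CPM in HE. The lowest Hy library lay above the highest HE library, with a log2 fold change of -0.87 (SE 0.20) and a DESeq2 adjusted p of 0.0294. Lox and Loxl2, which crosslink elastin and collagen, had log2 fold changes of -0.86 and -0.78 with SEs of 0.49 and 0.37, and both overlapped. Collagen genes had a median of -0.03 and 0 of 14 at an unadjusted p below 0.05 (3.66% of all genes tested).

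Hypoxia-response genes had a median of -0.08 and glycolysis genes one of -0.13. The glucose and lactate carriers had the lowest values of the glycolysis list, and the enzymes lay between -0.30 and 0.40. Slc16a3, the lactate exporter MCT4, had 15.1, 32.0, 22.6 and 27.9 CPM in Hy and 9.89, 9.39 and 12.7 CPM in HE (log2 fold change -1.19, SE 0.27, DESeq2 adjusted p 0.0294). Slc2a1, the glucose transporter GLUT1, had 34.6, 31.0, 34.6 and 43.5 CPM in Hy and 19.2, 21.8 and 28.6 CPM in HE (log2 fold change -0.63, SE 0.18). Both genes were without overlap, 2 of the 17 tested genes of the list (2.42% of all genes tested in this direction). In the list 3 genes were lower at an unadjusted p below 0.05 (2.52%). Slc2a3, the GLUT3 gene of leukocytes and neurons, was high in Hy2 and Hy4 (25.6 and 25.4 CPM) and between 6.34 and 11.2 CPM elsewhere. Gapdh, Pgk1 and Aldoa, enzymes of the pathway, had log2 fold changes of -0.12, -0.10 and -0.13. Vegfa, a target of hypoxia-inducible factors, had 1111 to 1360 CPM in Hy and 1087 to 1293 CPM in HE. Apln, the apelin gene of endothelium that exercise is known to induce in muscle, had 40.2 to 85.7 CPM in Hy and 22.5 to 54.8 CPM in HE.

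Fewer genes were higher than lower in HE at an unadjusted p below 0.05 in edgeR (167 against 369). The genes described next were chosen by smallest p among genes without overlap, and the cells they came from were not examined. Bex2, a brain-expressed X-linked gene, had the smallest p of the named genes, with 5.07, 6.19, 3.80 and 4.70 CPM in Hy and 14.3, 21.5 and 12.8 CPM in HE. HE was more than 2 times above Hy in every pair of libraries (log2 fold change 1.71, SE 0.25, DESeq2 adjusted p 1.91e-05). Igfbp2, a binding protein of insulin-like growth factors, had 411, 242, 359 and 252 CPM in Hy and 628, 704 and 700 CPM in HE. It was the most abundant of the genes chosen by smallest p in the higher direction, and its log2 fold change was 1.10 (SE 0.21, 95% interval 0.61 to 1.59). Angptl2, an angiopoietin-like secreted protein gene, had 69.1, 68.6, 69.8 and 55.2 CPM in Hy and 109, 95.1 and 123 CPM in HE. Fanca, a DNA crosslink repair gene, had 1.11, 0.926, 3.00 and 0.823 CPM in Hy and 5.89, 5.10 and 7.28 CPM in HE. Ptgfr, the prostaglandin F receptor gene, ran from 7.39 to 9.20 CPM in Hy and from 11.9 to 16.1 CPM in HE. DESeq2 called Igfbp2 (0.00157), Angptl2 (0.00675), Fanca (0.022) and Ptgfr (0.0309) at those adjusted p-values.

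The other genes chosen by smallest p in the higher direction were Lrrn2, A4galt, Pmm1, Hdac11 and Dnah8, with log2 fold changes from 0.49 to 1.22, and the interferon-induced pair Ifit3 and Ifit3b. Arterial and fibroblast genes also had members without overlap, 2 of 12 in each list, all higher in HE (2.0% of all genes tested). The arterial list had 8 positive and 4 negative genes, and the fibroblast list 7 and 5. Mgp, the matrix Gla protein gene that restrains calcification and BMP signalling, had 791, 820, 453 and 485 CPM in Hy and 1079, 1176 and 975 CPM in HE (log2 fold change 0.76, SE 0.25). Hey1, a Notch target of arterial endothelium, had 53.5 to 105 CPM in Hy and 114 to 126 CPM in HE, and Tcf21, a transcription factor of lung fibroblasts, 134 to 234 and 279 to 312 CPM. Against these, arterial Gja5 and Cxcl12 were at -0.53 and -0.41, and the arterial list as a whole had a median of 0.18, which was -0.04 without HE1 and -0.01 without HE2.

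Ifit3, an antiviral effector of the interferon response, had 49.8, 87.6, 59.4 and 68.0 CPM in Hy and 170, 132 and 112 CPM in HE. Ifit3b, its neighbour on the same chromosome, had 11.5, 19.2, 18.8 and 12.9 CPM in Hy and 31.6, 26.7 and 26.3 CPM in HE. Neither overlapped between groups, and HE1 was the highest library in both. Ifit1 and Ifit2 of the same family had log2 fold changes of 0.66 and 0.78 with overlap. The rest of the interferon-induced list did not follow, since 13 of 17 genes were negative with a median of -0.22 (-0.07 without Hy1 or Hy2), among them Cxcl10 at -1.70 and Rsad2 at -1.27. The promoters of the pair are shown because the 2 genes had alike values and near-identical sequence. They are the 250 bases before the listed RefSeq transcript start on GRCm38.p6, both on the plus strand, Ifit3 at chr19:34583279-34583528 and Ifit3b at chr19:34607707-34607956. Both windows lie inside the annotated span of their gene. Capitals mark matches on either strand to GAAANNGAA, most of the core of the interferon-stimulated response element, and none overlapped a match of the other motifs searched.
Ifit3: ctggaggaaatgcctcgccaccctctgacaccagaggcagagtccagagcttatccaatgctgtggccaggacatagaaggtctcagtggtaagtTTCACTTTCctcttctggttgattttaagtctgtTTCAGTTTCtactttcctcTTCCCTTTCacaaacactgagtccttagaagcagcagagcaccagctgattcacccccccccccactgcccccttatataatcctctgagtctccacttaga
Ifit3b: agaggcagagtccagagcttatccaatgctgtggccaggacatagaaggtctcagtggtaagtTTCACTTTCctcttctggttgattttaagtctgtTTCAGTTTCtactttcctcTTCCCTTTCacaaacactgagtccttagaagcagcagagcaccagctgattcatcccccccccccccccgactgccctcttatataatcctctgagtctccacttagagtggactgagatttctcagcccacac
Each window held 3 matches, and 7.13% of the 32851 promoters held at least 1. The windows were identical at 216 of 218 aligned bases (99.1%). Reads of such copies can be split between them by the counting, so the separate values of Ifit3 and Ifit3b are uncertain.

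Circadian clock genes differed by role. The clock runs on the activators Arntl and Clock, whose products switch on the Per, Cry and Nr1d genes that later repress them, and on output factors of the PAR family (Dbp, Tef and Hlf) opposed by Nfil3. The activators were negative in 3 of 3 and the repressors positive in 9 of 10. Arntl had 15.9, 6.36, 9.07 and 10.1 CPM in Hy and 5.33, 5.34 and 2.32 CPM in HE. Hlf had 7.74, 22.2, 18.9 and 11.5 CPM in Hy and 30.1, 35.3 and 46.2 CPM in HE, and Nfil3 had 13.8, 8.74, 6.86 and 7.52 CPM in Hy and 3.11, 6.28 and 3.18 CPM in HE. All of Arntl, Nfil3, Hlf and Tef were without overlap, 4 of the 17 genes (4.42% of all genes tested), with log2 fold changes of -1.26 (SE 0.39), -1.14 (SE 0.36), 1.30 (SE 0.34) and 0.52 (SE 0.27).

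Clock genes also differed between libraries of a group. Hy1 was the highest library in Arntl, Npas2 and Nfil3 and the lowest in Hlf, Dbp, Tef, Per2 and Per3, with 54.8 CPM of Dbp against 150 to 246 CPM in the other Hy libraries. Within HE, HE3 had the lowest Arntl and the highest Hlf, and HE2 had 128 CPM of Dbp against 423 and 340 CPM. Nr1d1, which encodes REV-ERB-alpha, ran from 239 to 568 CPM in Hy and from 153 to 694 CPM in HE. The list median was 0.20 without Hy1 and 0.18 without HE3. The labels used here give no hour of collection. The promoter of Tef is shown as that of an output gene known to be switched on through E-boxes, from the same table, at chr15:81802423-81802672 on the plus strand, with the E-box letters CACGTG (the same on both strands) in capitals.
Tef: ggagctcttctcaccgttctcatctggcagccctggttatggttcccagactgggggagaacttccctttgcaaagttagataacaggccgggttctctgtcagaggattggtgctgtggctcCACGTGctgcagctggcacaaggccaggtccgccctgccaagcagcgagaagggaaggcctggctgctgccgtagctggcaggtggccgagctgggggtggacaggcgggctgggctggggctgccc
It held 1 match, and 6.02% of the 32851 promoters held at least 1.

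**Figure D3:**
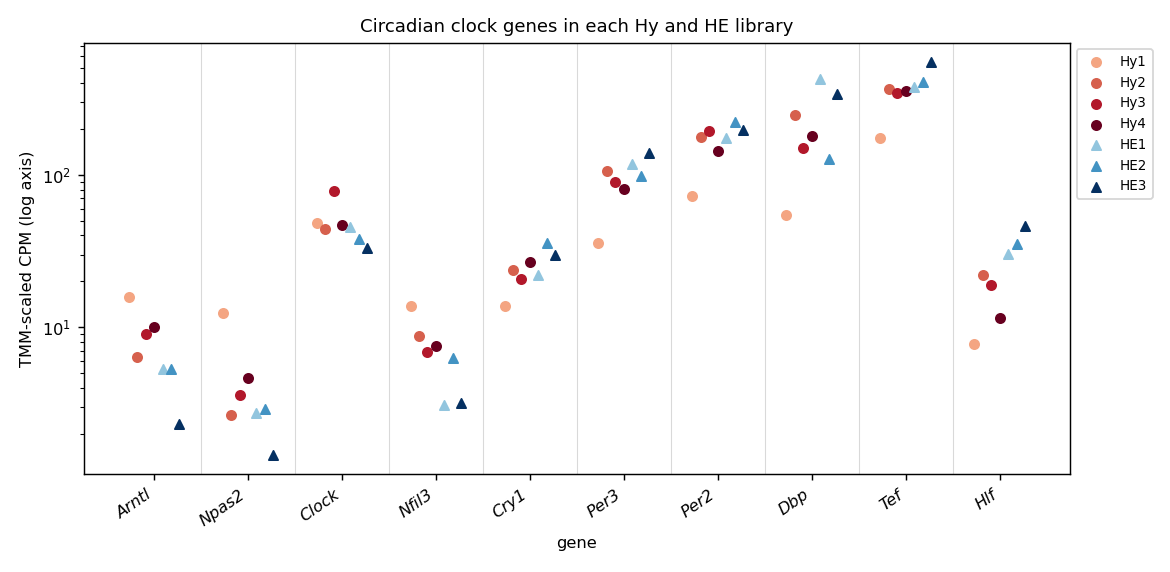
TMM-scaled CPM on a log axis for 10 clock genes, 1 point per library, circles for Hy and triangles for HE, with activators and Nfil3 on the left, repressors in the middle and outputs on the right. HE lies below Hy in Arntl and Nfil3 and above it in Tef and Hlf, and Hy1 is at the far end of most genes (Dbp 54.8 CPM).

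Of 17 glucocorticoid-responsive genes, 15 were positive (45.8% of all genes tested) with a median of 0.34, and 0 had an unadjusted p below 0.05 (3.66%). The median was 0.13 without HE2 and 0.53 without HE1. Fkbp5, which feeds back on the glucocorticoid receptor, had 20.4, 32.5, 61.3 and 26.6 CPM in Hy and 13.4, 109 and 70.5 CPM in HE, and Tsc22d3, the GILZ gene, 307, 182, 251 and 76.8 CPM in Hy and 163, 629 and 287 CPM in HE. HE2 was highest and HE1 was below most of Hy in both, so the HE libraries differed widely. Fatty acid oxidation genes were positive in 16 of 16 with a median of 0.17, where 45.8% of all genes tested were positive. The 3 highest values were those of Angptl4 (1.01), Pdk4 (0.70) and Ucp3 (0.66), all with overlap. Angptl4, a lipase inhibitor, had 215 CPM in HE2, 70.0 and 71.2 CPM in HE1 and HE3 and 37.6 to 79.0 CPM in Hy. Unfolded protein response genes were positive in 19 of 22 with a median of 0.17. Herpud1, a membrane protein of the endoplasmic reticulum, had 186, 252, 169 and 190 CPM in Hy and 314, 260 and 294 CPM in HE, without overlap. Atf4, a transcription factor of the same list, was without overlap in the other direction, with 270, 189, 196 and 209 CPM in Hy and 175, 182 and 168 CPM in HE. Without HE1 the list median was -0.03.

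Adipocyte and mesothelial genes followed a few libraries. Of the 9 tested adipocyte genes, 5 were higher in HE at an unadjusted p below 0.05 (1.14% of all genes tested), and 0 were without overlap. The adipocyte score was 0.83 in HE1, -0.75 in HE2 and at most 0.35 in Hy. Adipoq, the adiponectin gene of fat cells, had 3.06, 0.235 and 14.8 CPM in HE and 0 to 0.764 CPM in Hy, and Plin1, which coats fat droplets, 1.61, 0.117 and 7.61 CPM in HE and 0.116 to 0.582 CPM in Hy. The HE3 library held most of both. Without HE3 the adipocyte median went from 1.30 to 0.36 and that of mesothelium from 0.37 to -0.21. Without Hy4, whose mesothelium score was -1.99, the mesothelium median was 0.03. Msln, the mesothelin gene of the pleural lining, had 79.1, 78.2, 91.2 and 15.9 CPM in Hy and 74.2, 90.1 and 178 CPM in HE. The scores of these lists for HE3, 2.13 and 1.15, were the highest of the 7 libraries, and HE3 was also high in cardiac muscle. The part of other tissues in these values was not tested.

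The Hy libraries were farther from each other than the HE libraries. The SD of log2 CPM was larger in Hy in 75.7% of the 14664 genes, with a median SD of 0.32 in Hy and 0.17 in HE. With 3 Hy libraries, the same number as HE, the share was 71.9%, 75.5%, 61.9% and 72.1% without Hy1, Hy2, Hy3 and Hy4 in turn. Root mean square differences of log2 CPM ran from 0.62 to 0.94 (median 0.69) among the 6 pairs of Hy libraries, from 0.52 to 0.58 (median 0.57) among the 3 pairs of HE libraries, and from 0.56 to 0.76 (median 0.65) among the 12 pairs across groups. The median Hy pair was thus farther apart than the median pair across the groups. Hy3 was the library farthest from the other Hy libraries in 46.7% of genes. In a principal component analysis the leading axis (35% of the variance) placed Hy3 at -67.3, Hy2 at -1.76, Hy1 at 21.7 and Hy4 at 43.5, and the HE libraries between -3.82 and 4.64.

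**Figure D4:**
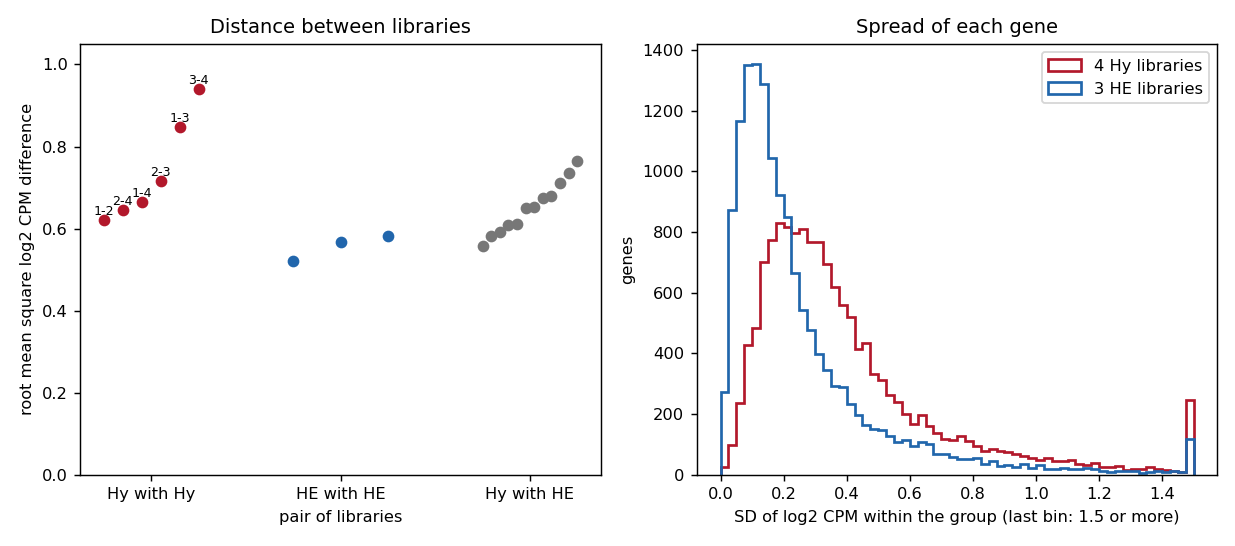
Left, root mean square log2 CPM difference for every pair of libraries, with Hy pairs marked by their numbers; right, the number of genes by SD of log2 CPM within Hy (red) and within HE (blue). Pairs with Hy3 are the farthest apart (up to 0.94), HE pairs lie at 0.52 to 0.58, and the Hy curve lies to the right of the HE curve.

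The spread inside Hy ran along several programmes with different libraries at the ends. Hy4 was high in neutrophil (2.08), cardiac muscle (2.21), club cell (1.44) and motile cilia (1.03) scores and low in red cell (-1.84) and mesothelium (-1.99) scores. Hy3 was the reverse in most of these, with 2.55 for red cells, -2.15 for club cells, -2.01 for cardiac muscle and -1.12 for motile cilia. The SD of the motile cilia score was 0.97 in Hy and 0.06 in HE, although all 20 genes of the list were negative in HE against Hy. The list median of -0.37 was -0.07 without Hy4. Rsph1, a radial spoke protein of cilia, had 125, 16.55, 11.3 and 146 CPM in Hy and 31.6, 19.8 and 21.7 CPM in HE. Hy1 was the highest in NK cell (1.04) and dendritic cell (0.93) scores and the lowest in alveolar macrophage genes (-1.21). Hy2 shared the neutrophil genes with Hy4 but had a cardiac score of -1.41.

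The genes with the largest SD of log2 CPM in Hy, among those with at least 10 CPM on average, were H2-Ea, Scgb3a1, Tgtp1, Reg3g, Hmga1b, Bpifb1, Ntrk2, Slc26a10, Gdpd3 and Bpifa1. Several are secreted proteins of the large airways. Scgb3a1, a secretoglobin, had 34.5, 21.0, 0.919 and 487 CPM in Hy and 250, 7.92 and 843 CPM in HE, and Bpifa1, the airway protein SPLUNC1, 0.873, 0.984, 0.123 and 27.6 CPM in Hy and 124, 1.64 and 486 CPM in HE. Hy4, HE1 and HE3 were the high libraries in both, as in Reg3g and Bpifb1, so these genes varied inside HE too. Scgb1a1, the club cell secretory protein gene, followed another order, with 91853, 66490, 20598 and 78392 CPM in Hy and 32587, 52120 and 33964 CPM in HE. Ntrk2, the receptor for brain-derived neurotrophic factor, had 8.91 CPM in Hy1 and 498, 991 and 374 CPM in the other Hy libraries, against 478, 120 and 407 CPM in HE. Slc26a10 was tight in HE (23.3 to 27.8 CPM) and ran from 1.22 to 127 CPM in Hy, again lowest in Hy1. Tgtp1, an interferon-gamma induced GTPase with a near-identical copy, had 0.231 CPM in Hy2 and 95.5 CPM in Hy3.

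Of the 491 genes blank in C, 130 were tested, 5 had an unadjusted p below 0.05 and 6 did not overlap, close to the shares over all genes (3.66% and 4.42%). Named among them by smallest p, with proper symbols and at least 2 CPM, were Eef1akmt4 and Tmem81 in the higher direction (log2 fold changes 0.33 and 0.26) and Zfp660 and Smim31 in the lower direction (-0.28 and -0.24). Each had a 95% interval that included 0. Of the 130 genes, 59 have a span that overlaps another annotated gene, and reads in a shared stretch may not be told apart without strand. Such overlap was common over all genes too. The fit on genes that overlap no other tested 7794 genes, against 14664 in the main fit.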

How the data were processed

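Values deposited by the authors are estimated counts per gene, 1 table per library, not normalised; 93.3% to 93.6% of the Hy and HE values were whole numbers. The submitters' processing notes name RSEM 1.2.12, DESeq 1.4.5, HISAT2 2.0.4 and Bowtie2 2.2.5 and the build GRCm38.p6, without their roles or an annotation release. RNA was selected with oligo(dT), and strand use is not stated, per the labels' protocols. Entrez identifiers were mapped to RefSeq symbols (17903 of 17956).

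Counts were rounded. Genes passing edgeR's filter on low counts by group (14664, with 3292 not tested) were fitted with edgeR 4.0.16 (R 4.3.3): TMM factors (0.962 to 1.04), robust quasi-likelihood, no covariate, 5 residual degrees of freedom, Benjamini-Hochberg over all genes tested, threshold 0.05. The scripts were tested on simulated data. Scores and SDs used log2 CPM with a prior count of 2. Depth differed little between libraries. Alternatives were DESeq2 1.42.0, limma-voom 3.58.1 with and without sample quality weights, no filter, a filter of 1 CPM in 3 libraries, RLE factors, C added, the replicate number as a block, each library left out, Hy2 and Hy4 left out, and genes overlapping no other.

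Named genes were the 12 higher and 12 lower with the smallest p among genes of at least 2 CPM whose groups did not overlap, 3 genes from each of the 4 lowest and 4 highest lists, the 10 with the largest SD in Hy, 4 blank in C, and 15 set genes; others are named as list members after their values were seen. Not every gene that the rule takes is reported here. Gene lists, members and rules were chosen with earlier results of these data known.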

Additional observations from a re-analysis of the deposited data

Results flagged for a closer look

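In 127 sets of 4 Hy values (named genes and list scores), 1 library was checked for standing far from the other 3. By Dixon's criterion, 11 sets had such a library. Chance meets this criterion in about 1 in 20 unselected sets. These sets were not unselected, since genes were named partly for a large SD in Hy or for lack of overlap, and lists share genes. H2-Ea and Hmga1b, both flagged, were named for their SD in Hy. The count of 11 therefore cannot be compared with that rate. HE, with 3 libraries, was not checked. Hy1 was the far library in 4 sets, Hy4 in 4, Hy3 in 2 and Hy2 in 1. In Hy1, Tef was low at 175 CPM, Ccl22 was high at 4.02 CPM, the T cell score was high at 0.414 and the glycolysis score was low at -0.192. In Hy4, Angptl2 was low at 55.2 CPM, Msln at 15.9 CPM, Hmga1b at 0.47 CPM and H2-Ea at 0 CPM. In Hy3, Bpgm was high at 85.3 CPM and the cytosolic ribosome score was low at -0.768. In Hy2, Ptgfr was high at 9.2 CPM, still below every HE library.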

How the results depend on the processing

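The count of 0 called genes became 35 with DESeq2 (8 higher, 27 lower) and ranged from 0 to 1 with each library left out, the 1 being Ctps2 without HE2; it stayed 0 in the other alternatives. Same-numbered Hy and HE libraries did not deviate together (correlations -0.03, 0.04 and -0.01), and the replicate block gave 0 calls. So few pairs cannot decide whether the numbers pair the libraries. The share of genes with a larger SD in Hy ranged from 61.9% (without Hy3) to 79.5% with each library left out. At unadjusted p below 0.05, 1093 genes were found without Hy3 and 333 without HE3, against 536. Log2 fold changes that changed sign were -0.0687 for Hmga1b and -0.0175 for Bmpr2 with the replicate block; -0.74 for Tgtp1, -0.0654 for Hmga1b, -0.0931 for Bmpr2 and -0.0331 for Sftpc without Hy2 and Hy4; 0.49 for Ntrk2 and 0.00835 for Slc26a10 with limma-voom; and 0.69 for Ntrk2, 0.00321 for Slc26a10 and -0.57 for Gdpd3 with sample quality weights. With each library left out, ranges crossing 0 were -0.10 to 0.94 (Upk3b), -1.01 to 0.0704 (H2-Ea), -0.0726 to 4.29 (Scgb3a1), -0.35 to 1.59 (Tgtp1), -0.0607 to 0.54 (Hmga1b), -0.89 to 0.19 (Ntrk2), -0.19 to 1.49 (Gdpd3), -0.45 to 0.011 (Smim31), -0.0434 to 0.22 (Bmpr2), -0.20 to 0.56 (Ednrb) and -0.13 to 0.41 (Edn1). The motile cilia median was 0.10 with the block. None of these genes was called, and the cause was not tested. The other values of single genes kept their sign (1171 of the same call and 22 called by an alternative alone).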

Other observations

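Among 10194 genes with at least 10 CPM on average, 7 stood at 2 levels across the 7 libraries, with a gap of at least 3 log2 units between the levels and at most 1.5 within each. H2-Ea, an MHC class II alpha chain gene, was at 0 in Hy4 and HE1 and between 82.5 and 178 CPM in the other 5 libraries. Gm10499 on the same chromosome 17 was low in the same pair, at 0.470 and 0.556 CPM against 17.1 to 36.1 CPM. Hmga1b, a high-mobility group gene, was low in Hy4 (0.470 CPM against 57.0 to 72.0 CPM), and Avpr1a, a vasopressin receptor gene, was low in Hy3 (1.04 CPM against 10.6 to 24.1 CPM). Gdpd3 was low in Hy3, Hy4 and HE3 (0.863 to 2.06 CPM against 52.2 to 95.9 CPM), and Gm4737 was at 0 in HE3 (14.4 to 30.6 CPM elsewhere). The 7 genes had 6 different sets of low libraries, and the groups did not overlap in 1 of them, Retnlg.

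Ctps2, a CTP synthase gene on the X chromosome, had 28.6, 30.3, 29.8 and 26.4 CPM in Hy, 31.0 CPM in HE2 and 4.45 and 5.02 CPM in HE1 and HE3. With HE2 in the fit its log2 fold change was -1.10 (SE 0.62), and without HE2 it was -2.60 with an edgeR adjusted p of 0.0211.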
